A study of Oryza sativa with 3 samples.

Results

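Mature miRNAs were counted in the young panicle, the flower-bearing branch system of rice before heading, of wild type japonica rice (Oryza sativa). The wild type sample was 1 of 3 libraries, each from 1 genotype with no replicate. The other two came from the mutants ld-1 and ld-2 and were not used here. The labels give no cultivar, plant age, panicle stage or number of pooled plants for the wild type sample, and they describe it as untreated. Plants were raised in the greenhouse or outdoors in summer, and the labels do not say which for this sample. All 367 mature sequences of the table were considered. Length and 5′ base are those of the listed sequence and were not measured on the reads. Counts were not scaled by length. The library held 116818 reads on these sequences. Shares are percentages of these reads, with exact 95% binomial (Clopper-Pearson) intervals in parentheses that cover counting error only.

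Plant miRNAs are cut from hairpin precursors by DICER-LIKE enzymes as a duplex of a guide strand and a strand from the opposite arm, and usually only the guide is kept in an ARGONAUTE protein. The guide pairs with its target over nearly its whole length, and the target mRNA is cut or kept from being translated. In the grass inflorescence, miRNAs are known for setting phase change, branching, meristem identity, the polarity of organs and the development of anthers.

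The 10 most abundant sequences, which make up most of the library, are shown 5′ to 3′ with T for U as in the deposited table, and with capitals for the seed, bases 2 to 8.
miR159a//miR159b: tTTGGATTgaagggagctctg
miR166a//miR166b//miR166c//miR166d//miR166f//miR166j: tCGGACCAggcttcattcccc
miR167a//miR167b//miR167c: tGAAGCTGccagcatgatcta
miR1859: tTTCCTATgacgtccattccaa
miR166g//miR166h: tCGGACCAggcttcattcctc
miR166k//miR166l: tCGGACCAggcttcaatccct
miR168a: tCGCTTGGtgcagatcgggac
miR528: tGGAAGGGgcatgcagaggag
miR535: tGACAACGagagagagcacgc
miR390: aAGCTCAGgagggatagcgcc

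Joined names mark 1 sequence encoded by several gene copies. The 3 miR166 sequences share the seed CGGACCA, and the seeds of the other 7 differ from it and from each other. Among the first 9 the 5′ base is U (T in the table), and miR390 starts with A. Over the whole table there were 313 different seeds, of which 195 had a read, and 5 occurred in more than 1 family. The seed of miR167, GAAGCTG, was also that of a 24-nt miR5150 sequence with 28 reads, and the seed of miR319b was also that of miR5802, with 6 reads.

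The profile was dominated by few sequences. The sequence shared by miR159a and miR159b, which represses GAMYB transcription factors of anther development, had 53047 reads or 45.4% (45.1% to 45.7%). It was 3.91 times as abundant as the next, the miR166 sequence of 6 copies with 13554 reads (11.6%, 11.4% to 11.8%). miR166 acts on HD-ZIP III factors, which set the upper side of leaves and maintain meristems. Next was the miR167a to miR167c sequence, directed at auxin response factors, with 10811 reads or 9.25% (9.09% to 9.42%). With miR1859 (7297 reads) and the miR166g and miR166h sequence (6946 reads), the first 5 reached 78.5% (78.2% to 78.7%) of the reads. The first 10 sequences held 86.6%, the first 20 held 92.4%, and the first 50 held 98.0%.

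**Figure D1:**
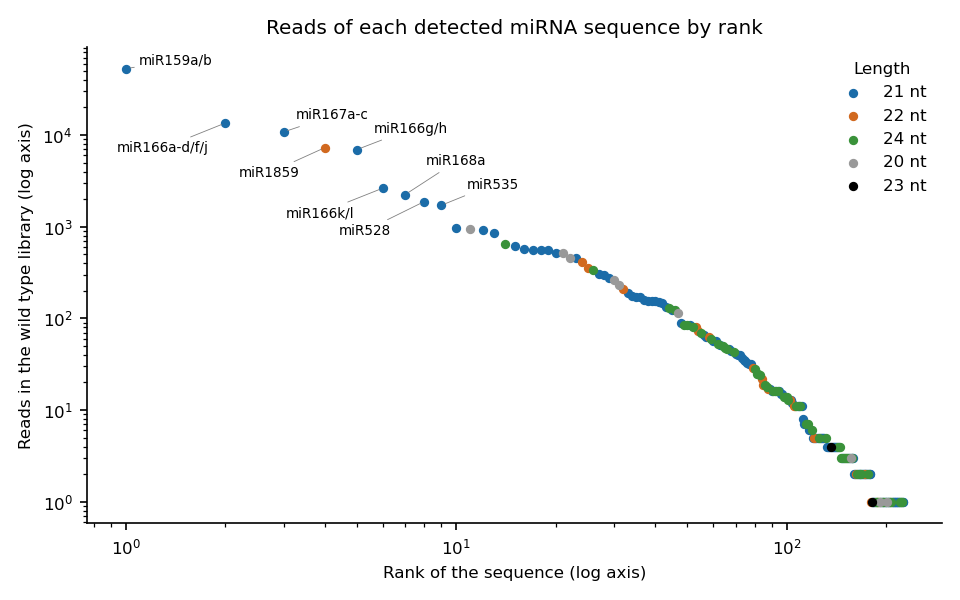
Reads of each of the 225 detected miRNA sequences (vertical log axis) against their rank (horizontal log axis) in the wild type library, coloured by length. The miR159a and miR159b sequence stands at 53047 reads, 9 sequences lie above 1000 reads, and a long tail reaches 1 read, with the first 24-nt sequence at 654 reads.

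The first 2 sequences held 57.0% of the reads, 16 were needed for 90% and 69 for 99%. A total of 225 of 367 sequences (61.3%) had at least 1 read, and the median of the detected ones was 7 reads, with quartiles of 2 and 63. Of the detected sequences, 9 had at least 1000 reads, 38 had from 100 to under 1000, 64 had 10 to 99, 68 had 2 to 9, and 46 had a single read. The last 2 classes together were 114 sequences, and 2 to 9 reads accounted for 0.216% of the library and single reads for 0.0394%. The intervals of neighbouring ranks did not overlap among the first 10 sequences. Below them, each sequence overlapped the next in rank except at ranks 13 and 14, where miR162a had 863 reads and miR1862d had 654. Overlap does not settle the order of close ranks, and that order was not tested. Examples are miR390 with 975 reads, miR394 with 952 and miR160e with 916.

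Summed by family, defined as miR plus its number, 136 of 219 families had a read. The first 3 families held 75.6% (75.3% to 75.8%): miR159 with 53201 reads (45.5%), miR166 with 24232 (20.7%) and miR167 with 10872 (9.31%). The fourth, miR1859, was a family of 1 sequence with 6.25%, and no role is given to it here. The first 10 families held 90.5% and the first 20 held 97.4%, and 12 families had at least 1000 reads. The 28 families of the lists of known function held 90.8% (90.6% to 91.0%) of the reads, and the other 191 families held 9.21%. The lists were chosen with earlier results of these data known, and some families outside them also have known targets. The 22 families that rice shares with Arabidopsis held 85.0% (84.8% to 85.2%), and 21 of them were detected.

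**Figure D2:**
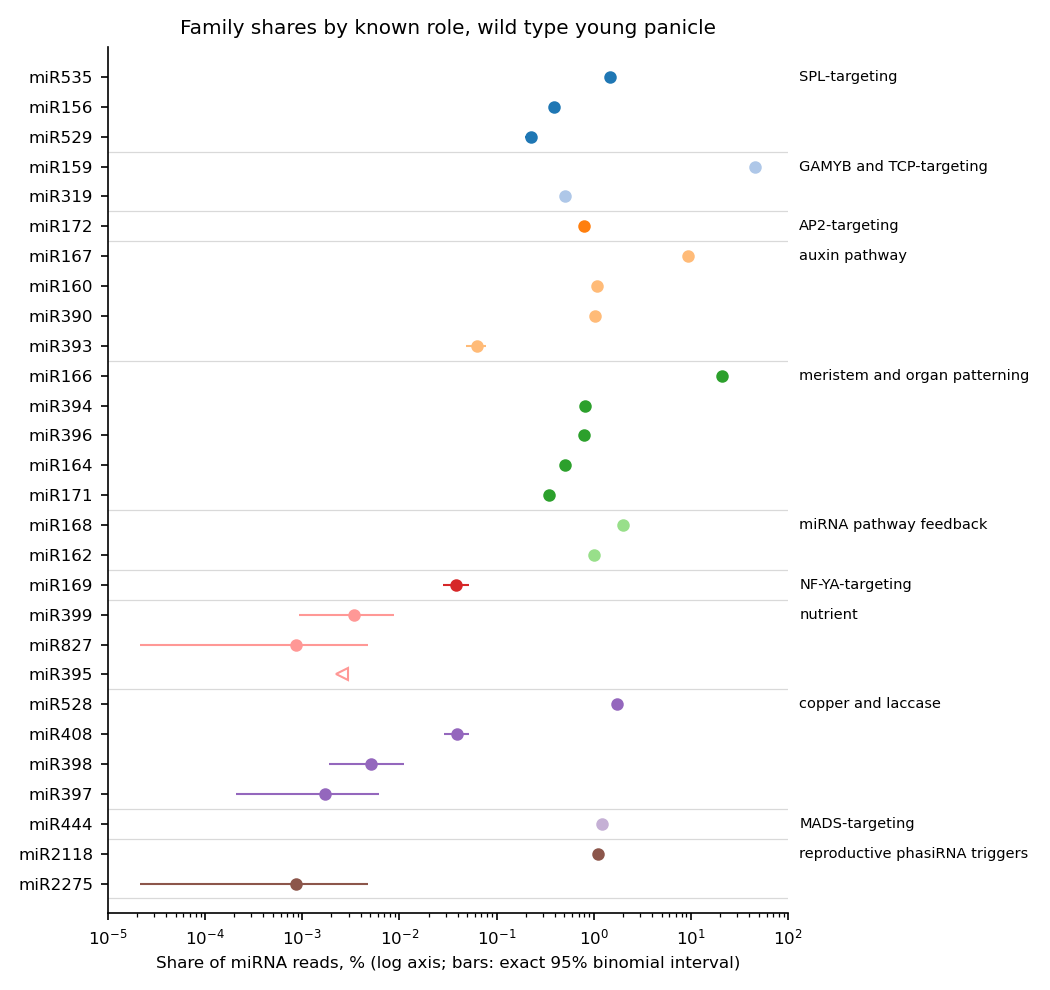
Share of miRNA reads (horizontal log axis, percent) of the 28 families of the function lists, grouped by known role, with exact 95% binomial intervals as bars; the open triangle marks a family with no read at the share that 3 reads would have. The families spread from 45.5% for miR159 down to 1 read for miR827 and miR2275, and miR395 had none.

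The miRNAs that act on factors of phase change and floret identity held a small share of the library. The families directed at SPL factors of phase change and panicle branching, miR156, miR529 and miR535, had 2450 reads or 2.10% (2.02% to 2.18%). Within them miR535 had 1729 reads, miR156 had 459 and miR529 had 262. The 458 reads of the leading miR156 sequence stood for 10 gene copies. The deposited miR529a sequence, cTGTACCCtctctcttcttc, held each of the 262 miR529 reads, while miR529b, aGAAGAGAgagagtacagctt, had 0. The miR529b sequence is the form known to pair with SPL mRNAs, and it matched miR529a as an opposite strand over 17 of 18 facing bases, G with U pairs included. The AP2-targeting family miR172, whose targets act in spikelet and lodicule identity, had 935 reads or 0.8004% (0.7501% to 0.853%).

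The GAMYB and TCP list was almost wholly miR159. miR319, which acts on TCP factors of organ growth, had 597 reads or 0.511% (0.471% to 0.554%). Its reads were 513 of miR319b, tTGGACTGaagggtgctccc, the form known to target TCP mRNAs, and 84 of a miR319a sequence 13 edits away, aGCTGCCGaatcatccattca.

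Auxin-related families had 13429 reads or 11.5% (11.3% to 11.7%), of which miR167 was the main part. miR160, directed at repressing auxin response factors, had 1275 reads. miR390, which starts the production of trans-acting siRNAs against auxin response factors, had 1209. miR393, which acts on auxin receptors, had 73 reads, or 0.0625%. Of these, 17 were of the miR393a sequence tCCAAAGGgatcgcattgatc, the form known to pair with receptor mRNAs, and 56 of the miR393b sequence tCAGTGCAatccctttggaat. The auxin families therefore spanned from rank 3 to rank 33 of all families.

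Families of meristem and organ patterning held 27111 reads or 23.2% (22.97% to 23.5%), with 25 of 29 sequences detected. After miR166 came miR394, which in Arabidopsis acts on an F-box gene of the shoot meristem, with 952 reads from a single 20-nt sequence. miR396, directed at growth-regulating factors of floral organs, had 928. miR164, which acts on NAC genes of organ boundaries, had 594, of which 575 were of the sequence shared by miR164a, miR164b and miR164f. miR171, which acts on GRAS factors of meristem maintenance, had 405. These last 4 families each lay between 0.347% and 0.815%.

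The remaining lists were near or under 3%. The pathway's own regulators, miR168 against AGO1 and miR162 against DCL1, had 2325 and 1169 reads, together 2.99% (2.89% to 3.09%). The copper and laccase list had 2085 reads, 1.78%, almost entirely from miR528, a monocot family against an ascorbate oxidase, with 2031. Its other families were sparse. miR408, against plantacyanin and laccase, had 46 reads, miR398, against copper superoxide dismutases, had 6, and miR397, against laccases, had 2. miR444, a monocot family against MADS-box genes, had 1415 reads, 1.21% (1.15% to 1.28%), over 6 detected sequences of 6.

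Of the families known from developing anthers, miR2118 was present and miR2275 was at the limit of detection. miR2118, whose cuts start phased siRNAs of 21 nt in grass anthers, had 1292 reads or 1.11% (1.05% to 1.17%), with a read in each of its 12 sequences. miR2275, which starts the 24-nt class, had 1 read, but it was listed with only 1 sequence, against the 12 of miR2118. Families that accumulate in leaf and root under nutrient lack had few reads: miR399 (phosphate) had 4 reads, miR827 (phosphate) had 1 and miR395 (sulfate) had 0. The NF-YA-targeting family miR169 had 45 reads over 2 of 7 sequences. The table holds miRNAs only, so the labelled tissue could not be checked against marker mRNAs.

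Outside the lists, the 10 most abundant families were miR1859, miR1862 (829 reads), miR5144 (457), miR1876 (340), miR1425 (196), miR1850 (152), miR2871 (128), miR1868 (122), miR5794 (89) and miR1878 (85). Only miR1859 exceeded 1% of the reads. miR1425 is known to target pentatricopeptide repeat genes related to fertility restorers, and roles are not given here for the others. miR820, encoded in CACTA transposons and known to act on a DNA methyltransferase gene, had 34 reads and was named after its value was seen.

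The length of the sequences separated a 21-nt majority from a smaller 24-nt class. The 206 sequences of 21 nt held 103443 reads, 88.6% (88.4% to 88.7%), although they were 56.1% of the table. The 81 sequences of 24 nt were 22.1% of the table and held 2201 reads, 1.88% (1.81% to 1.96%). Sequences of 22 nt held 8630 reads, 7.39% (7.24% to 7.54%), and those of 20 nt held 2539, 2.17% (2.09% to 2.26%). The 4 sequences of 23 nt had 5 reads, and the single sequences of 19 and 25 nt had none. RNA of 20 to 30 nt had been cut from a gel, a range that includes 25 nt but not 19 nt. Why neither sequence had a read was not tested. The 21-nt share depended on the leading families: it was 79.0% without the miR159a and miR159b sequence, and 53.1% without the families miR159, miR166 and miR167.

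Detection did not follow the read share. A read was found for 61 of 81 sequences of 24 nt (75.3%), for 131 of 206 of 21 nt (63.6%), and for 22 of 55 of 22 nt (40.0%). The median of the detected sequences was alike, with 7 reads at 24 nt and 6 at 21 nt, but 33 sequences of 21 nt and 4 of 24 nt reached 100 reads. The 24-nt class thus had many detected members and few abundant ones, its highest at 654 reads against 53047 at 21 nt.

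**Figure D3:**
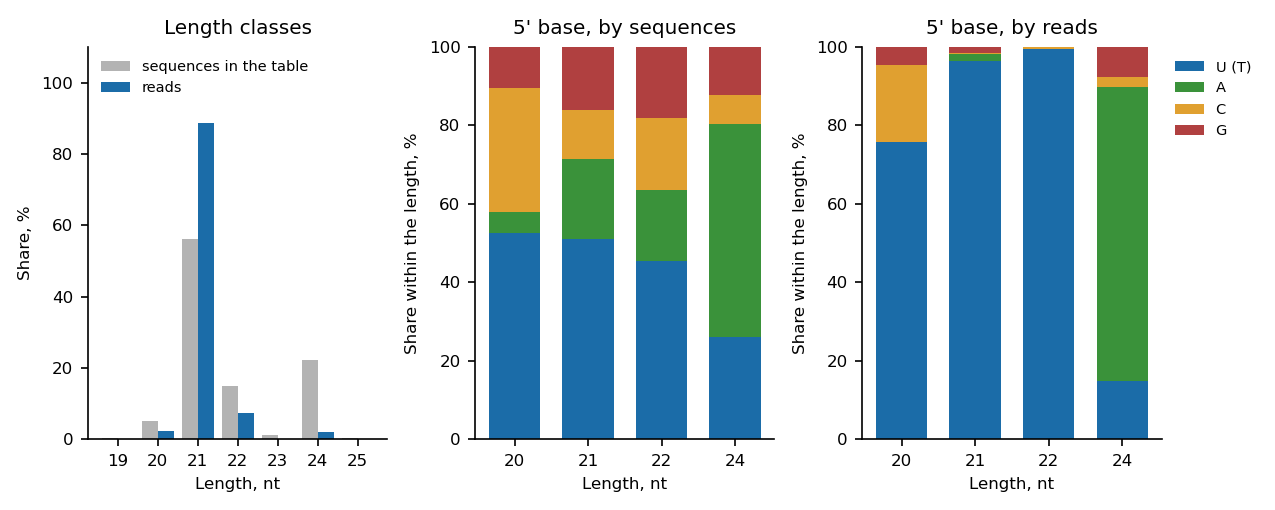
Left, share of the 367 sequences and of the reads (percent) by length; middle and right, share of each 5′ base within a length, by sequences and by reads. The 21-nt bar holds 88.6% of the reads, and by reads U leads at 20, 21 and 22 nt while A leads at 24 nt.

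The 5′ base, which is known to steer plant small RNAs to different ARGONAUTE proteins, differed between the lengths. U at the 5′ end is typical of AGO1 guides, and A of AGO4 guides, the partners of 24-nt RNAs that direct DNA methylation. In rice, 24-nt miRNAs made by DCL3 have been described as loaded into AGO4. Of the 21-nt reads, 96.5% (96.4% to 96.6%) started with U, and 92.8% did so without the miR159a and miR159b sequence. Of the 22-nt reads 99.5% started with U. Of the 24-nt reads, 75.01% (73.1% to 76.8%) started with A and 14.9% (13.4% to 16.4%) with U. The A share rested largely on 2 sequences, miR1862d and miR1876, which together held 45.2% of the 24-nt reads.

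The 5′ bases of the table itself were also uneven. Of all 24-nt sequences, read or not, 44 of 81 (54.3%) start with A, and of all 21-nt sequences 105 of 206 (51.0%) start with U. At 24 nt the A share among detected sequences was 52.5%, close to that of the table, while 4 of the 5 most abundant start with A. At 21 nt the U share was 64.9% among detected sequences. Of the 47 sequences with at least 100 reads, 32 started with U, 6 with G, 5 with A and 4 with C, and each of the 9 with at least 1000 reads started with U.

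The leading sequences of 24 nt are shown because 4 of the 5 carry the 5′ A, and miR1868 starts with U.
miR1862d: aCTAGGTTtgtttattttgggacg
miR1876: aTAAGTGGgtttgtgggctggccc
miR1862a//miR1862b//miR1862c: aCGAGGTTggtttattttgggacg
miR1868: tCACGGAAaacgagggagcagcca
miR1878: aCTTAATCtggacactataaaaga

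miR1862d had 654 reads, 29.7% (27.8% to 31.7%) of the class. miR1876 had 340, the sequence of miR1862a to miR1862c had 129, miR1868 had 122 and miR1878 had 85. These 5 made up 60.4% of the 24-nt reads, so the class was less concentrated than that of 22 nt. At 22 nt, miR1859 alone held 84.6% (83.8% to 85.3%) and miR2118 held 15.0%. The other 42 sequences of 22 nt had 41 reads in all, in 9 of them, with at most 17. At 20 nt, miR394, miR319b and the miR156 sequence held 75.7% of the reads. The remaining 20-nt reads were mostly of miR529a (262), a miR390 sequence (234) and a miR172d sequence (115).

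Within families, the reads were examined for a leading sequence. There were 22 families with at least 100 reads and at least 2 sequences in the table, and in 10 of them 1 sequence held at least 90% of the family. These were miR529, miR156, miR5144, miR159, miR167, miR535, miR2871, miR164, miR168 and miR528. In 3 families, miR171, miR444 and miR2118, the leading sequence held 46.7%, 44.1% and 31.7%. The median share of the leading sequence over the 22 families was 83.3%. How reads were divided between sequences that differ by 1 base is stated by no label or file header, so values of close copies depend on that rule.

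**Figure D4:**
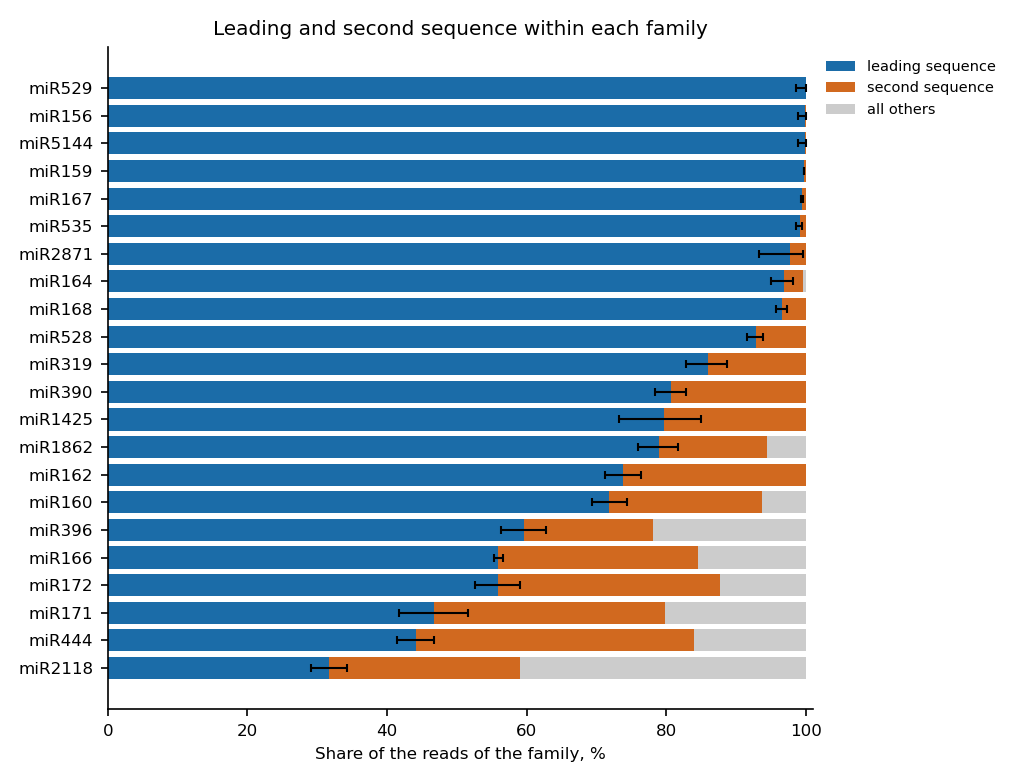
Share of the reads of a family (percent) held by its leading sequence, its second sequence and all others, for the 22 families with at least 100 reads and at least 2 sequences; black bars are exact 95% binomial intervals of the leading share. The leading share falls from 100% in miR529 to 31.7% in miR2118.

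The families miR159 and miR167 were each nearly a single sequence. The leading miR159 sequence held 99.7% (99.7% to 99.8%) of 53201 reads. miR159f, which differs from it by T1C and G21A (the leading sequence's base first, then the position from its 5′ end, where 1 is the first base), had 154 reads. miR159c, miR159d and miR159e differ from it by 2 or 3 bases, start with A and had 0 reads. In miR167, the 3-copy sequence had 10811 reads and the sequence of the 7 copies miR167d to miR167j, which differs only by A21G, had 57. The miR167 sequence with more copies was thus the rarer by a factor of 190.

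miR166 was spread over many copies, with reads in 12 of its 13 sequences. Its 3 leading sequences, printed above, held 55.9% (55.3% to 56.6%), 28.7% (28.1% to 29.2%) and 10.9% (10.5% to 11.3%) of 24232 reads. The second differs from the first by C20T and the third by T16A and C21T, so the seed is the same in each. Other sequences of this arm were rare: miR166e, which differs from the first by G4A within the seed, had 63 reads, miR166m (C21T) had 15 and miR166i had 4. The 6 sequences of this arm held 95.8% of the family, and the 7 others held 4.15%. Most abundant of these others was another miR166h sequence, with 562 reads.

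In other families the leading and second sequences differed by 1 base and both were well represented. They are shown in pairs, the leading one first, because the position of the difference varies.
miR160e: tGCCTGGCtccctgtatgccg
miR160a//miR160b//miR160c//miR160d: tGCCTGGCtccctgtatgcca
miR162a: tCGATAAAcctctgcatccag
miR162b: tCGATAAGcctctgcatccag
miR172a//miR172d: aGAATCTTgatgatgctgcat
miR172b: gGAATCTTgatgatgctgcat
miR396c: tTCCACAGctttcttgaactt
miR396a//miR396b: tTCCACAGctttcttgaactg

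In miR160 the change G21A lay at the 3′ end. miR160e, from 1 copy, had 916 reads or 71.8% (69.3% to 74.3%) of its family, and the 4-copy sequence had 278 or 21.8% (19.6% to 24.2%). In miR396 the change T21G lay at the same position, with 553 reads (59.6%, 56.4% to 62.8%) for miR396c and 172 (18.5%, 16.1% to 21.2%) for the 2-copy sequence. The sequence after these, miR396e, had 157 reads, and its interval of 14.6% to 19.5% overlapped that of the second. In both families the sequence with more gene copies was the less abundant.

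In miR162 the change A8G fell on the last base of the seed. miR162a had 863 reads or 73.8% (71.2% to 76.3%), and miR162b had 306 or 26.2% (23.7% to 28.8%). In miR172 the change A1G fell on the 5′ base and left the seed unchanged. The miR172a and miR172d sequence had 522 reads or 55.8% (52.6% to 59.0%), and miR172b, the copy named in the title of the series, had 298 or 31.9% (28.9% to 35.0%). Thus miR172 guide sequences starting with A were 1.75 times as abundant as those starting with G, and miR172c, which starts with U, had 0 reads.

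Within families, gene copy number and reads did not go together in a fixed way. Of the 22 families, 13 had a sequence shared by several copies, and in 8 of these the leading sequence was among those with the most copies. In the other 5, miR167, miR2118, miR160, miR396 and miR1862, another sequence was encoded by more copies. Sequences under joined names were 55 of the 367 and held 78.9% (78.7% to 79.2%) of the reads, of which the miR159 sequence was the main part. Over all 367 sequences, 59.3% of those with 1 copy had a read, and their median was 1 read. With 2, 3 and 4 or more copies, 73.3%, 71.4% and 72.7% had a read, with medians of 21.5, 4 and 25.

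Of the 22 families, miR2118 had the lowest leading share. Its leading sequences are given because they differ at few positions.
miR2118h//miR2118k: tTCCTGATgcctctcattccta
miR2118f//miR2118j//miR2118m: tTCCTGATgcctcccattccta
miR2118c//miR2118q: tTCCCGATgcctcctattccta

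They had 409, 353 and 207 reads, or 31.7% (29.1% to 34.3%), 27.3% (24.9% to 29.8%) and 16.0% (14.1% to 18.1%) of the family. The first 2 intervals overlap, which does not settle their order, and the order was not tested. The second differs from the first by T14C, and the third from the first by T5C, T14C and C15T, of which T5C changes the seed. The other 9 miR2118 sequences had 11 to 80 reads each.

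In miR444 the 2 leading sequences came from the same copies, miR444b and miR444c, and from overlapping positions. They share a run of 15 bases, and the second begins 6 bases upstream of the first.
miR444b//miR444c, first: tGTTGTCTcaagcttgctgcc
miR444b//miR444c, second: tGCAGTTGttgtctcaagctt

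The first had 624 reads or 44.1% (41.5% to 46.7%) and the second 563 or 39.8% (37.2% to 42.4%), with overlapping intervals. Among the 59 pairs of sequences listed under the same copy name with a read in either, this was the only pair that overlapped by at least 12 bases on the same strand. miR444d had 156 reads, and miR444e and miR444f, which start like the second sequence, had 32 and 5.

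Of the same 59 pairs, 42 paired with each other as the opposite strands of a duplex would, over at least 75% of facing bases and at least 14 bases, G with U pairs included. The table names no arms, so these pairs were found from sequence alone. Of the 23 with at least 100 reads, the more abundant strand started with U in 14 of 17 different sequences, and the less abundant in 4 of 23. The sequence joined under miR166a and miR166e, with 175 reads, is in both counts. It is the less abundant strand for miR166a and the more abundant for miR166e. The less abundant strand held a median of 5.12% of the reads of the pair, from 0% to 41.5%. Where the abundant sequence is shared by several copies, this share cannot be assigned to 1 copy.

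**Figure D5:**
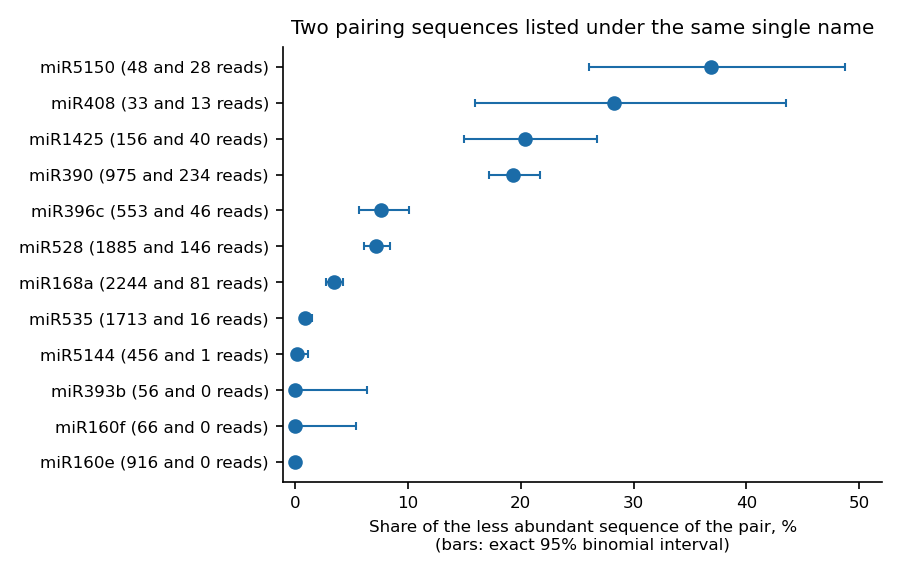
Share of the less abundant of 2 pairing sequences (horizontal axis, percent of the reads of the pair) for the 12 pairs listed under 1 single name with at least 30 reads; points are the shares and bars exact 95% binomial intervals. The shares run from 0% in miR160e, miR160f and miR393b to 36.8% in miR5150; the miR393b strand at 0 contains the miR393a sequence, which had 17 reads and is not counted here.

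The 12 pairs whose sequences are each listed under 1 name alone are not affected by joined names. In miR393b, the strand at 0 reads is the miR393a sequence with 1 more base, and miR393a had 17 reads, so its 0% depends on how reads of such nested sequences were assigned. Of the 12 pairs, 8 paired with an offset of 2 bases. Between strands of equal length this is the overhang that DICER-LIKE cutting leaves, but the miR168a strands among them differ in length. The strand ratio varied widely between them. In miR535 the second strand, gTGCTTTCtcccgttgtcact, had 16 reads against 1713, or 0.925% (0.530% to 1.50%). In miR5144 it had 1 read against 456, and in miR160e it had 0 against 916, an upper limit of 0.402% by the exact interval. In miR168a the second strand had 81 reads (3.48%, 2.78% to 4.31%) and was listed at 24 nt, 3 bases longer than the guide.

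Other pairs kept more of both strands. The sequences are shown for the best represented of them.
miR528, second strand: cCTGTGCTtgcctcttccatt
miR396c, second strand: gGTCAAGAaagctgtgggaag
miR390, second strand: cGCTATCTatcctgagctcc
miR1425, first strand: tAGGATTCaatccttgctgct
miR1425, second strand: cAGCAAGAactggatcttaat

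The second strand had 146 reads or 7.19% (6.10% to 8.40%) in miR528 and 46 reads or 7.68% (5.68% to 10.1%) in miR396c. In miR390 it had 234 reads, 19.4% (17.2% to 21.7%), and in miR1425 40 reads, 20.4% (15.0% to 26.7%). The intervals of miR390 and miR1425 overlap each other and lie above those of miR528 and miR396c. The abundant strand of miR390 starts with A, and in Arabidopsis miR390 works with AGO7 in making trans-acting siRNAs. miR408, with 33 and 13 reads, and miR5150, with 48 and 28, had wide intervals that reached above 40%.

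In miR171 and miR172 a second strand was also well represented, beside guide sequences shared by several copies. The miR171 guide of 5 copies, tGATTGAGccgtgccaatatc, had 189 reads, and the miR171c sequence gGATATTGgtgcggttcaatc, which paired with it over 20 of 20 facing bases, had 134. In miR172 the miR172d sequence gCAGCACCatcaagattcac paired with the miR172a and miR172d guide over 17 of 19 bases and had 115 reads, or 12.3% (10.3% to 14.6%) of the family.

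A total of 83 of the 219 families had no read, and they accounted for 100 of the 142 sequences at 0. As a floor for a count of 0, 3 reads were used, which is 0.00257% of the library or 25.7 RPM (reads scaled to a total of 1000000). This floor is lower than the upper limit of the exact 2-sided 95% interval, which is 3.69 reads or 0.00316%. Of the function lists only miR395, which acts on sulfate assimilation and transport, was at 0, in each of its 7 sequences that stand for 22 gene copies. The share of undetected families outside the lists is given by family number. It was 5 of 12 (41.7%) below 1400, 21 of 64 (32.8%) for numbers from 1400 to under 4000, 44 of 99 (44.4%) for 5000 to under 6000, and 12 of 16 for 6000 and above, against 1 of 28 in the lists. The 1 of 28 depends on the choice of lists, which was made with earlier results of these data known. The families numbered from 5000 to under 6000 held 898 reads in all, 0.769% (0.719% to 0.820%), of which miR5144 had 457.

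Families with 1 sequence in the table were undetected in 71 of 156 cases (45.5%), and those with at least 2 sequences in 12 of 63. miR530, described in rice as acting on a gene of panicle branching and grain yield, and miR1432, described as acting on an acyl-CoA thioesterase gene of grain filling, were among the undetected and were named after their values were seen. Another 76 families had 1 to 9 reads, and 28 of these had a single read. A further 42 sequences at 0 belonged to detected families, such as miR159c, miR172c and 5 of the 7 miR169 sequences. At this depth a family at 0 is not shown to be absent from the panicle.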

How the data were processed

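Small RNA of wild type young panicles was sequenced once. Per the labels' protocols, Trizol RNA was run on a denaturing gel, the fraction of 20 to 30 nt was made into a NEXTFlex (v3 kit) library, and a MiSeq was used for sequencing. The deposited values are the authors' raw read counts for each mature sequence, as the file headers say. How reads were trimmed, mapped and counted, which miRNA annotation was used, and how many reads fell outside the table are not given in the sources used. Efficiencies of ligation and amplification of single sequences were not measured, so ratios between sequences are ratios of reads.

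Counts were summed by family and length. Shares have exact 95% Clopper-Pearson intervals, tested only on data simulated with independent reads, as the intervals assume. For a count of 0 a floor of 3 reads is given beside the exact limit of 3.69. The intervals cover counting error only and take reads as independent. They are too narrow where reads are not independent molecules. With 1 library there was no test and no p-value. The deposited mutant counts were not used. Pairing of strands was ungapped, with offsets up to 6 bases. Named were the 20 leading families and sequences, families of the lists, many leading and second sequences of families, and leaders of the main lengths. Members and lists were chosen with earlier results of these data known. Python 3.11.15, numpy 2.4.6, scipy 1.17.1, pandas 2.3.3 and matplotlib 3.10.9 were used. Alternatives were read minimums, close sequences summed, related families joined, and the leading sequence or sequences over 8 edits from the leader of their family left out.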

Additional observations from a re-analysis of the deposited data

How the results depend on the processing

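With at least 10 reads as the limit of detection, 111 sequences and 60 families counted as detected and 159 families as not detected. With at least 3 reads, 128 families counted as not detected, while the detected ones were 159 sequences and 91 families. An alternative chosen after seeing the data removed 1 of 2 reads at random. Then 193.9 sequences and 116 families would be expected to keep a read (computed exactly). Removing reads can only lower these counts, so only the size of the drop is informative. Without the miR159a and miR159b sequence, the first 5 sequences held 64.7% of the reads, the first family was miR166 with 38.0%, and 21-nt sequences held 79.0%. The 21-nt share was 53.1% without miR159, miR166 and miR167, also chosen after seeing the data. Summing sequences of a family within 1 edit gave 192 detected sequences, 82.8% for the first 5, and 14 families of 22 led by 1 sequence. Joining miR159 with miR319 gave 46.1% for the first family. The number of led families was 15 with only sequences within 8 edits of the leading one kept, 14 at a 75% threshold and 11 of 29 at a minimum of 30 reads. The limit of 8 edits removes most opposite strands but also miR319a and each miR444 sequence except the leading one. No paired analysis was possible because there is 1 library per genotype, and no replicate could be left out.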

Other observations

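Sequences of different families were compared for shared runs of at least 12 bases on either strand. Among 24947 pairs of detected sequences of different families, 2 shared such a run, both in reverse complement and both with miR1873. miR1873, tCAACATGgtatcagagctggaag, had 50 reads. It shared 17 bases in reverse complement with miR1863a, aGCTCTGAtaccatgttagattag (16 reads), and 17 with a miR1863b sequence, aGCTCTGAtaccatgttaactgtt (3 reads). No 2 detected sequences of different families shared a run of that length on the same strand. Each of these 3 sequences is of 24 nt.

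The miR812 family, with 20 gene copies in the table, had 81 reads over 8 of 11 sequences. A sequence of 3 copies, miR812n, miR812t and miR812u, had 43 of them, and one of 4 copies, miR812g to miR812j, had 25.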
